A study of Homo sapiens with 2 samples.

Results

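The genes described here encode nucleoporins, the proteins of the nuclear pore complex, and the importins, exportins and Ran-binding proteins that carry cargo through it. They were chosen by name, by a rule that uses no measured value but was proposed with earlier results of these data known: platform gene symbols that begin with NUP, XPO, IPO, KPNA, KPNB, TNPO or RANBP followed by a digit, plus RANGAP1, CSE1L and NDC1, without pseudogenes. The choice gave 54 genes of the 14812 named in the table. RAN, RCC1, TPR, XPO1, KPNA2 and NUP62, which belong by name, were not analysed here.

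RNA came from BE(2)C, an established line of human neuroblastoma cells that carry amplified MYCN, itself 1 clone of a parent line, grown in DMEM with 10% serum. One culture received the MYCN siRNA called MYCN2 (Qiagen), the other ONTARGETplus control siRNA (Dharmacon), both with Lipofectamine 2000, and RNA was taken after 36 hours. The study asked what changes in these cells when MYCN is targeted. Each group was 1 Affymetrix Human Gene 2.0 ST array, so nothing is replicated or tested, and every value below describes these 2 RNA samples.

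All values are log2 RMA values. A difference is the MYCN siRNA array minus the control array, and a gene counted as measured when it reached the median of all rows (4.60 in the control array, 4.55 in the MYCN siRNA array) in at least 1 array, which 10592 genes did. Of the 54 transport genes, 50 were measured, each of them in both arrays. Probe sets of the same gene gave differences with an SD of 0.32 per probe set over 374 genes, and of 0.10 over the 19 genes whose dimmer probe set was at 8 or more. The first, called the probe-set SD below, is the wider yardstick for bright genes; both leave out spread between cultures and between hybridisations. The 11 adrenergic neuroblastoma markers in the table, such as GATA3 and HAND2, were all measured, at 6.47 to 10.73 in the control array. Under MYCN siRNA 9 of the 11 were higher, beside 5388 of the 10592 measured genes. ISL1 (−0.43) and HAND2 (−0.09) were lower. The median difference of the 11 was 0.19, and their summed level 13.29 in the control array against 13.57 under MYCN siRNA. DBH, which makes noradrenaline, was 2.73-fold higher. It was the only 1 of the 11 past 1.5-fold, beside 8.81% of all measured genes at least 1.5-fold higher. Markers of other cell types went both ways within most lists. The 3 blood-cell markers in the table had a summed level of 7.61 in the control array against 9.10 under MYCN siRNA. Only the lysosomal gene CD68 (1.735) rose among them, CSF1R was lower (−0.38) and CD14, not measured, was unchanged. The 4 fibroblast markers had 8.17 against 8.08, with LUM lower (−1.17) and THY1 (0.10), FBN1 (0.50) and the unmeasured DCN (0.75) higher. The 3 Schwann or glial markers had 7.37 against 7.70, with S100B higher (1.02) and SOX10 (−0.28) and GFAP (−0.24) lower. The 4 epithelial or endothelial markers had 7.15 against 6.85, each of them lower. The part of these markers in the results below was not tested. MYCN RNA was not analysed here, and the strength of the knockdown is unknown here.

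The nuclear pore is a ring-shaped channel through the nuclear envelope. An inner and an outer ring of scaffold nucleoporins hold it in the membrane, and nucleoporins rich in phenylalanine-glycine (FG) repeats fill the channel and let carriers pass. Carriers of the importin beta family bind cargo on one side and release it on the other, steered by the GTPase Ran, which carries GTP in the nucleus and GDP in the cytoplasm; the importin alphas (KPNA genes) are adaptors that link cargo with a classical import signal to importin beta (KPNB1). Growing cells bring in ribosomal proteins and send out ribosomal subunits by this route.

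More of the transport genes lay below the control than above it, most by under 1.5-fold. In the MYCN siRNA array 37 of the 50 measured genes (74%) were lower, beside 48% of all measured genes. Their median difference was −0.17 (1.12-fold lower), beside 0.01 for all measured genes. A change of 1.5-fold or more was seen in 5 genes downward (10%, beside 5.79% of all measured genes) and in 1 upward (beside 8.81%). At 2-fold there were 2 genes downward (background 1.16%) and 1 upward (background 2.21%). Within 1 probe-set SD of 0 (0.32) lay 29 of the 50 (58%), beside 60.5% of all measured genes. By the narrower SD of bright probe sets (0.10), 9 of the 35 transport genes with a mean level of 8 or more lay within it (25.7%), beside 23.3% of protein-coding genes at that level.

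The transport genes gave brighter signals than most (median mean level 9.11, beside 6.75 for all measured genes), so they were also set beside genes of like brightness. Of the 35 with a mean level of 8 or more, 28 were lower (80%), with a median of −0.22. Of the 2868 protein-coding genes at that level, 46.8% were lower, with a median of 0.03. Among the 15 dimmer measured transport genes 9 were lower (60%), beside 48% of all measured genes, with a median of only −0.01. The count of lower genes moved with the scaling: after centring both arrays on their medians 30 of 50 were lower, beside 42.9% of all measured genes. In bulk RNA of a culture, less transcript in every cell and fewer cells with the transcript cannot be told apart.

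**Figure D1:**
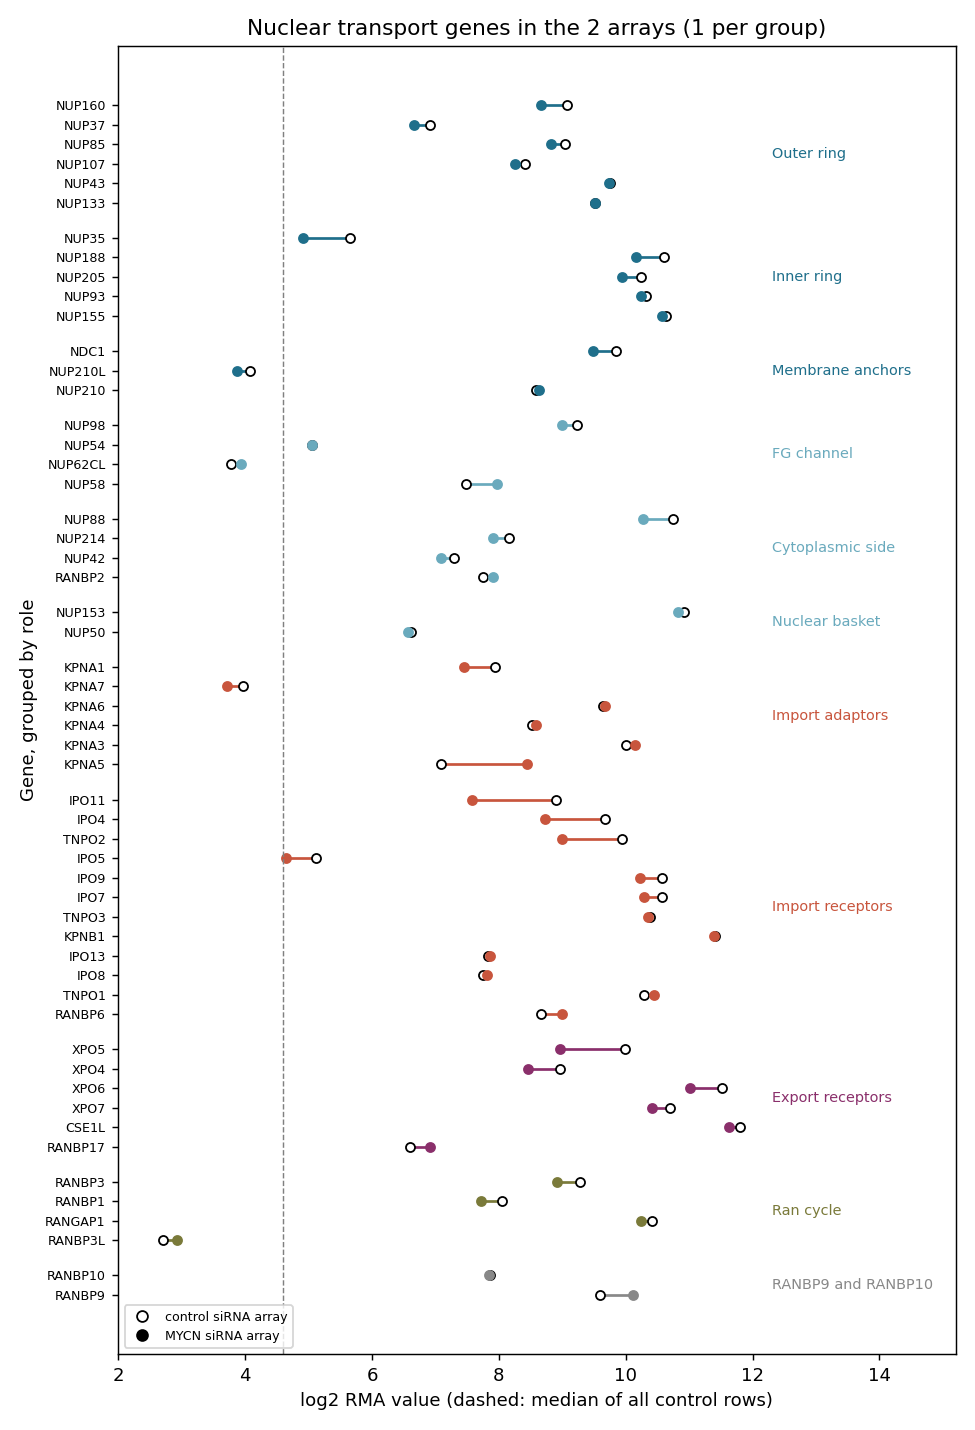
Level of each of the 54 genes in both arrays on the log2 scale, grouped by role, with open circles for the control siRNA array and filled circles for the MYCN siRNA array. Most filled circles lie slightly left of the open ones; the wide gaps belong to IPO11, XPO5, IPO4, TNPO2 and NUP35 (lower) and KPNA5 (higher), and 4 genes lie left of the dashed median.

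Of 13 measured scaffold genes of the pore 12 were lower, beside 48% of all measured genes, with a median of −0.22 (1.16-fold) and a range from −0.74 to 0.05. After median centring 10 of the 13 were lower, beside 42.9% of all measured genes.

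All 6 measured genes of the Y-shaped outer ring, which coats both faces of the pore, lay below the control in the values as deposited. Of all measured genes 48% did. NUP160, a large arm subunit, had the widest gap, with 9.07 in the control array against 8.67 under MYCN siRNA (difference −0.40). NUP37, a small subunit bound to NUP160, was at 6.91 and 6.66 (−0.25); pairs of levels below name the control array first. Both gaps were near the probe-set SD of 0.32. NUP85 (−0.22) and NUP107 (−0.16) were lower by less, and NUP43 (−0.02) and NUP133 (0.00 after rounding) were level; median centring turned the sign of both, and quantile normalization and loess turned that of NUP133. The 6 genes together had a median of −0.19.

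The inner ring, which lines the pore at the membrane, had a median of −0.29 over 5 measured genes. All 5 were lower, beside 48% of all measured genes. NUP35, a membrane-binding inner ring protein, gave the widest gap of any nucleoporin, from 5.66 to 4.92 (difference −0.74, 1.67-fold lower). It is a dim gene in both arrays, and when 16 was added to the linear values its difference was −0.52, under 1.5-fold. NUP188, one of the pair of very large inner ring scaffolds, was at 10.61 and 10.16 (−0.45, 1.36-fold lower). Its partner NUP205 was at 10.24 and 9.95 (−0.29). The bright inner ring genes NUP93 (10.32 and 10.25) and NUP155 (10.64 and 10.57) were nearly level, so the ring's genes did not share 1 value.

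Of the membrane anchors, NDC1, which spans the envelope, was at 9.84 and 9.49 (−0.35), while NUP210 was at 8.59 and 8.64 (0.05). NUP210L, a paralog of NUP210 known from testis, lay below the threshold in both arrays, at 4.07 and 3.87.

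The other pore proteins were more mixed. In the FG-rich channel NUP58 had the highest difference of the nucleoporins, at 7.48 and 7.97 (difference 0.50, 1.41-fold higher). Its channel partner NUP54 was dim and level (5.06 and 5.05), and NUP98, which binds the channel and the messenger RNA export factors, was at 9.23 and 9.00 (−0.24). NUP62CL, a paralog of the channel protein NUP62, was not measured (3.77 and 3.93).

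On the cytoplasmic side NUP88 was at 10.74 and 10.27 (−0.47, 1.39-fold lower). It anchors NUP214, a docking site for export complexes, whose 2 probe sets differed in size: the brighter went from 9.78 to 9.67 (−0.10) and the dimmer from 6.55 to 6.13 (−0.42). NUP42, a partner of the export factor GLE1, was at 7.30 and 7.08 (−0.21). RANBP2, the giant filament protein that holds SUMO-modified RANGAP1, was at 7.75 and 7.91 (0.16); near-identical RGPD copies make its value uncertain. In the nuclear basket NUP153 (10.93 and 10.82, −0.11) and NUP50 (6.61 and 6.57, −0.04) were nearly level.

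**Figure D2:**
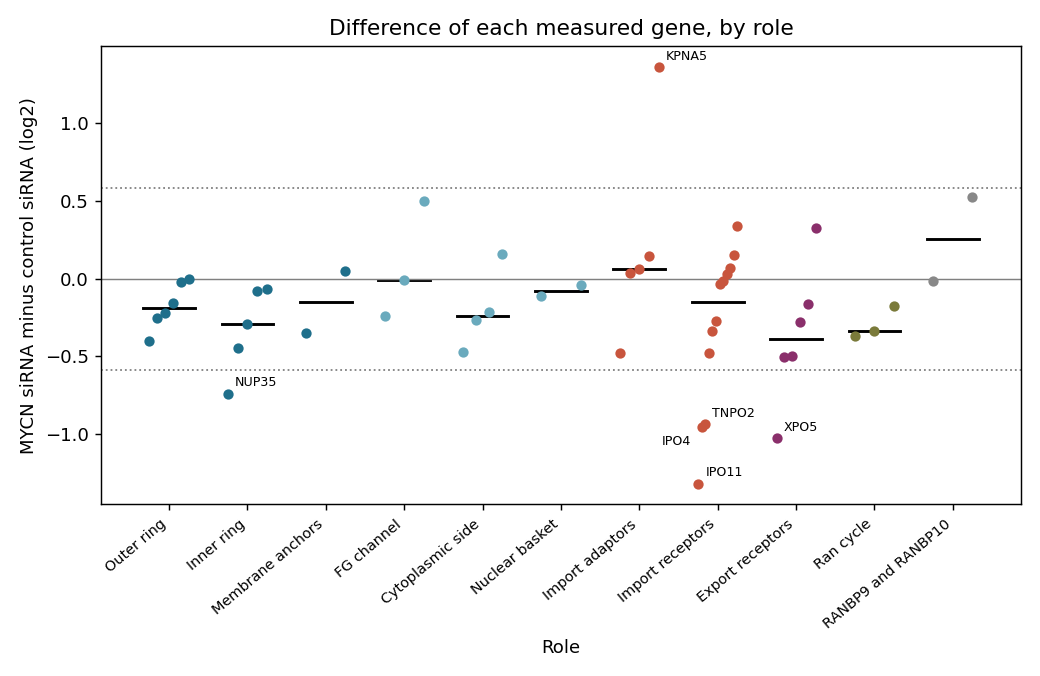
Difference (MYCN siRNA minus control siRNA, log2) of each of the 50 measured genes by role; 1 point is 1 gene, the black bar is the median of the role, and dotted lines mark 1.5-fold. Pore roles on the left run from −0.47 to 0.50 apart from NUP35 at −0.74, while import and export receptors run from −1.32 to 1.36.

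The widest differences were those of transport receptors. Among 23 measured importins, adaptors and exportins, 4 were at least 1.5-fold lower (17.4%, beside 5.79% of all measured genes) and 1 at least 1.5-fold higher (beside 8.81%). The differences spread with an SD of 0.56, beside 0.22 over the 13 scaffold genes; the spread over all measured genes was 0.43. Their median was −0.16, beside −0.22 for the scaffold, a gap between medians of 0.06. The probe-set SD is a spread of single probe sets and no yardstick for this gap, whose uncertainty was not estimated. Without the importin alphas the median of the receptors was −0.27 and the gap became −0.05; with no filter on low values it was 0.0044, and after loess 0.12. Which of the groups had the lower median rested on these choices. The range was narrower in the scaffold, −0.74 to 0.05, than in the receptors, −1.32 to 1.36, and the scaffold also had fewer genes.

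IPO11, an importin for ubiquitin-conjugating enzymes and other cargo, had the lowest difference of all 54 genes. It was at 8.90 in the control array against 7.58 under MYCN siRNA (difference −1.32, 2.49-fold lower), rank 37 from the lowest of 10592 measured genes. RefSeq places another gene, LRRC70, within the span of IPO11. IPO4, which imports ribosomal proteins and histones, was at 9.68 and 8.72 (−0.95, 1.94-fold lower, rank 148). TNPO2, a transportin for RNA-binding proteins, was at 9.94 and 9.00 (−0.94, 1.91-fold lower, rank 157). All these gaps were well over the probe-set SD.

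The remaining import receptors split into small shifts of both signs. IPO9, a carrier of histones and actin, was at 10.57 and 10.23 (−0.34), and IPO7, a carrier of ribosomal proteins, at 10.57 and 10.29 (−0.27). IPO5, a further carrier of ribosomal proteins, was dim, with 1 probe set at 6.26 and 5.63 (−0.64) and the other at 3.97 and 3.65 (−0.32). KPNB1, the main import receptor, was level at 11.41 and 11.40. TNPO3, the carrier of serine- and arginine-rich splicing factors, was level too (10.39 and 10.35), as were IPO13 (7.83 and 7.86) and IPO8 (7.75 and 7.82). TNPO1 was at 10.29 and 10.44 (0.16), and RANBP6 at 8.66 and 9.00 (0.34). The 12 measured import receptors had a median of −0.15, with 8 lower, beside 48% of all measured genes.

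The importin alphas were level or higher apart from KPNA1. So 1 of 5 measured genes was lower, beside 48% of all measured genes, and their median was 0.07. KPNA5 had the highest difference of all 54 genes, from 7.08 to 8.45 (difference 1.36, 2.57-fold higher, rank 58 from the top of 10592). KPNA1, of the same subfamily of importin alphas, was at 7.94 and 7.45 (−0.48, 1.40-fold lower), and the third of that subfamily, KPNA6, was level at 9.64 and 9.68. KPNA3 (10.01 and 10.15) and KPNA4 (8.52 and 8.59) moved by less than the probe-set SD. KPNA7, known from oocytes and embryos, was not measured (3.96 and 3.71). The adaptors and import receptors together had a median of −0.01, whose sign turned under median centring (0.04). The 17 genes went both ways, from −1.32 to 1.36, with a mean of −0.15. Of them 3 were at least 1.5-fold lower (17.6%, beside 5.79% of all measured genes) and 1 at least 1.5-fold higher (beside 8.81%).

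Of the export receptors 5 of 6 were lower, beside 48% of all measured genes, with a median of −0.39 (1.31-fold). XPO5, the exporter of microRNA precursors, was at 9.99 and 8.97 (−1.02, 2.03-fold lower, rank 113); the 2-fold mark was passed narrowly, and after median centring the difference was −0.97. XPO4, which exports the hypusine protein EIF5A, was at 8.96 and 8.46 (−0.50). XPO6, the exporter of actin with profilin, was at 11.52 and 11.02 (−0.50). XPO7, a carrier with a broad range of cargo, was at 10.70 and 10.42 (−0.28), and CSE1L, which returns importin alphas to the cytoplasm, at 11.80 and 11.63 (−0.16). RANBP17, a relative of XPO7, was the one above the control, at 6.59 and 6.92 (0.33). RefSeq places POLR1C, an RNA polymerase subunit, across the span of XPO5, and REC8, a meiotic cohesin, across that of IPO4. Other protein-coding genes also lie across the spans of NUP88, NUP188, RANBP1, RANBP2, RANBP3, RANGAP1 and RANBP9. How far the probes of any of these genes could share signal was not tested.

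The Ran cycle genes were lower in all 3 measured, beside 48% of all measured genes. RANBP3, a cofactor of XPO1, was at 9.28 and 8.91 (−0.37). RANBP1, which helps RANGAP1 trigger GTP hydrolysis by Ran, had 2 probe sets that gave −0.34 each, at 6.74 and 6.40 for the dimmer and 9.36 and 9.02 for the brighter. RANGAP1, the GTPase activator itself, was at 10.41 and 10.24 (−0.18). Their median was −0.34. RANBP3L was not measured (2.70 and 2.93). RANBP9 and RANBP10, which share the name but are scaffold subunits of a ubiquitin ligase complex and no carriers, were at 9.59 and 10.11 (0.53, 1.44-fold higher) and at 7.87 and 7.85. Without both, 36 of 48 genes were lower, beside 48% of all measured genes, with a median of −0.20.

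**Figure D3:**
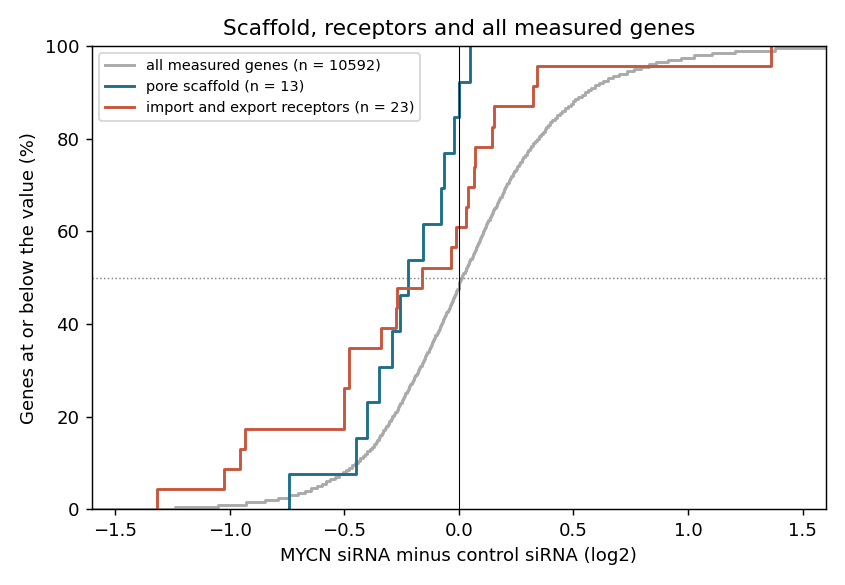
Cumulative share of genes (vertical axis, %) at or below each difference (horizontal axis, log2) for 13 scaffold genes, 23 import and export receptors and all 10592 measured genes. The scaffold curve is steep and reaches 100% just right of 0, the receptor curve crosses it near its median and has long ends on both sides, and both lie left of all measured genes at 50%.

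Related genes were set side by side. In 8 paralog pairs with both genes measured, 5 pairs differed by more than 0.45, the SD of the gap between 2 probe sets of 1 gene. How often 2 unrelated genes differ by as much was not computed, and since single differences over all measured genes have an SD of 0.43, the count is not read as a trait of paralogs. TNPO1 and TNPO2 were furthest apart, with TNPO2 1.09 lower on the log2 scale than its paralog (difference of differences −1.09). RANBP6 exceeded IPO5 by 0.82, although IPO5 was dim. RANBP17 exceeded XPO7 by 0.60, KPNA6 exceeded KPNA1 by 0.52, and RANBP9 exceeded RANBP10 by 0.54. IPO8 exceeded IPO7 by 0.34, within that SD. KPNA3 and KPNA4 (gap −0.08) and IPO13 and TNPO3 (gap −0.06) hardly differed. The sign differed within 7 of the 8 pairs, but RANBP10, TNPO3 and IPO13 lay so near 0 that some scalings turned theirs. Of all measured genes 48% were lower, so unrelated genes often differ in sign too. How often they do was not computed, and this count is not read as a trait of paralogs either.

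**Figure D4:**
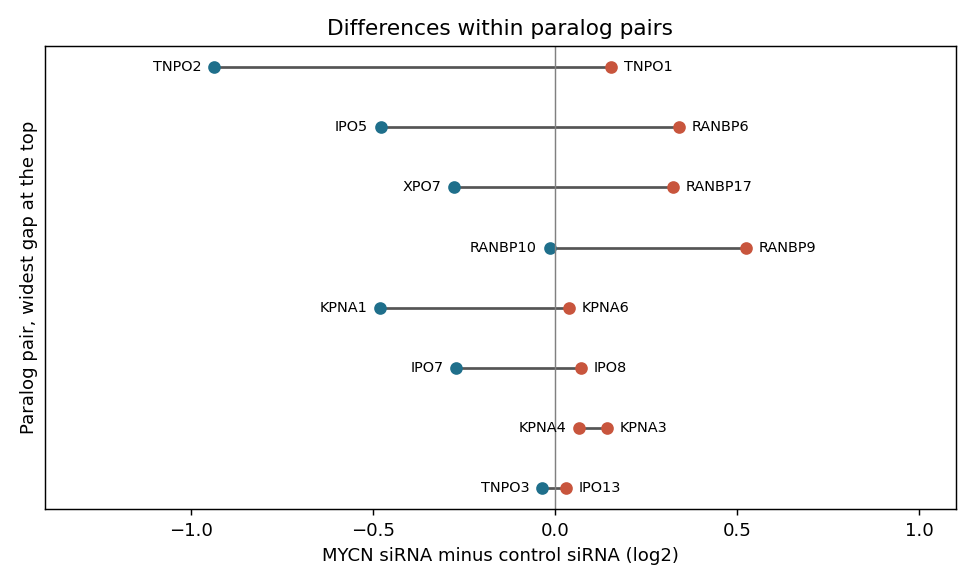
Differences (MYCN siRNA minus control siRNA, log2) of both genes of 8 paralog pairs, joined by a line and ordered by the gap. TNPO2 lies at −0.94 and TNPO1 at 0.16, the widest gap, and the gap of KPNA3 and KPNA4 is only −0.08.

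MYC family proteins bind DNA with MAX at the E-box, of which CACGTG is the canonical form, so the promoters of the transport genes were searched for these letters. The motif reads the same on both strands. RefSeq windows of GRCh38.p14 run from 250 bases before to 50 after each start; the first listed window of a gene was used, and 44 of the 50 measured genes had one. The motif was in 6 of these 44 windows (13.6%), beside 10.0% of the 8152 measured genes with a window and 7.43% of all 27305 windows. Counting every listed window of a gene added no further transport gene.

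The 6 genes were IPO4, TNPO2, NUP188, IPO7, NUP50 and KPNA3, with differences of −0.95, −0.94, −0.45, −0.27, −0.04 and 0.14. Their median was −0.36, beside −0.17 for the 38 genes whose window lacked the letters; over all measured genes the medians were −0.05 with and 0.03 without. Of the 5 transport genes at least 1.5-fold lower, IPO4 and TNPO2 had the motif, and IPO11, XPO5 and NUP35 did not have it in this window. That is 2 of the 6 genes with the motif and 3 of the 38 without. Over all measured genes with a window, 89 of the 818 with the motif and 383 of the 7334 without it were at least 1.5-fold lower. A match is a description of the sequence; binding was not measured.

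The windows of the 4 lowest genes with the motif are shown because they hold IPO4 and TNPO2, the third and the fourth lowest of the transport genes. Each runs 5′ to 3′ on the gene's strand from 250 bases before the start to 30 bases after it, with CACGTG in capitals. Counted from the start, with −1 the last base before it, the motif begins at −29 in IPO4, at −24 in TNPO2, at −77 and again at −30 in NUP188, and at −138 in IPO7. Coordinates are GRCh38.p14: IPO4 chr14:24188787-24189066 (minus strand), TNPO2 chr19:12723903-12724182 (minus strand), NUP188 chr9:128947449-128947728 (plus strand) and IPO7 chr11:9384402-9384681 (plus strand).
IPO4: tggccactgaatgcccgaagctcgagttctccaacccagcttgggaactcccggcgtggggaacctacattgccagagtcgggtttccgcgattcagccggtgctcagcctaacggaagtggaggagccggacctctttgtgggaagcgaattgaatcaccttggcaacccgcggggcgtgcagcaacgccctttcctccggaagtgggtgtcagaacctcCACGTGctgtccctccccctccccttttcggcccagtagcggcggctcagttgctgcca
TNPO2: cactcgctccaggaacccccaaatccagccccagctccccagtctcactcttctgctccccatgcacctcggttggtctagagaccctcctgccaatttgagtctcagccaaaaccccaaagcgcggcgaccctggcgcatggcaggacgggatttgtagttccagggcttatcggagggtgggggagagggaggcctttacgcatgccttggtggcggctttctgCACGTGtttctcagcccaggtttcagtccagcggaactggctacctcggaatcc
NUP188: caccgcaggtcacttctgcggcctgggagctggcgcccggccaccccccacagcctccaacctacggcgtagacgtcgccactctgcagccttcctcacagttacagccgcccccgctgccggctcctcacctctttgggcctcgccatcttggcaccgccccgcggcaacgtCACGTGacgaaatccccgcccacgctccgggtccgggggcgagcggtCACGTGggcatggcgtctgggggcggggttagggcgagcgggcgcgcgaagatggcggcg
IPO7: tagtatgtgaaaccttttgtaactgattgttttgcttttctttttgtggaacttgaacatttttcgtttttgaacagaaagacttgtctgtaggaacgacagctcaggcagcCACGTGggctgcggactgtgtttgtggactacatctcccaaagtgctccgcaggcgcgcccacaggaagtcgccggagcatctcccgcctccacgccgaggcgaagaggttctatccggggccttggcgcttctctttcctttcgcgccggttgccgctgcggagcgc

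Genes of the same machinery that the naming rule leaves out gave a similar picture for the pore and a mixed one for other carriers. Of 7 measured pore proteins outside the rule, 6 were lower, beside 48% of all measured genes. Their median was −0.31, beside 0.01 for all measured genes. None was past 1.5-fold, beside 5.79% of all measured genes downward and 8.81% upward. POM121, a membrane nucleoporin, was at 7.52 and 7.05 (−0.47), although the near-identical POM121C was level (6.24 and 6.26) and the pair is hard to tell apart. The outer ring partners SEH1L (9.78 and 9.38, −0.40) and AHCTF1 (10.01 and 9.68, −0.34) were lower as well. Of 6 other carriers and Ran partners 3 were lower, beside 48% of all measured genes, and 3 higher, with a median of −0.01. They ran from NMD3, the adaptor for export of the large ribosomal subunit (8.79 and 8.36, −0.43), to SNUPN, the import adaptor of spliceosomal particles (7.32 and 7.73, 0.41).

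Of 17 measured messenger RNA export genes 11 were lower, beside 48% of all measured genes, with a median of −0.08. None was at least 1.5-fold higher (beside 8.81% of all measured genes), and 2 were at least 1.5-fold lower (beside 5.79%). These 2 encode the small partner subunits of the export receptor NXF1. NXT2 was at 7.15 and 6.03 (−1.12, 2.18-fold lower) and NXT1 at 7.35 and 6.71 (−0.64, 1.56-fold lower). The TREX complex gene THOC6 was at 10.68 and 10.30 (−0.38), THOC1 (−0.04) and THOC5 (−0.03) were level, and SARNP was the highest at 7.39 and 7.64 (0.25).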

How the data were processed

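The authors deposited log2 values made with RMA, 1 per probe set and array, per the submitters' processing notes; software, version and settings: not given in the sources used here. Per the labels' protocols, labelling used 100 ng of total RNA and the WT PLUS kit. The control array is titled a reanalysis, and of what is not stated. The 2 arrays are 1 control siRNA and 1 MYCN siRNA sample, and their number limits the precision.

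Of 46255 rows, 15835 had 1 platform gene symbol, none had several and 30420 were unnamed here. Every one of the 15835 identifiers was found in the RefSeq table (GRCh38.p14), used for current symbols, gene types, neighbours and promoters. Probe sets of a gene were averaged on the log2 scale, giving 14812 genes. No test was run: counts and medians stand beside those of all measured genes. A level summed over a marker list is the log2 of the summed linear values. Roles, pathway lists and the rule for named genes were written down by role; the members and lists were chosen with earlier results of these data known. Every member is given; of each pathway list, the extremes and genes past 1.5-fold, plus some chosen after their values were seen. The comparison with genes at a mean level of 8 or more was chosen after seeing the data. Scripts were run in Python 3.11.15 (pandas 2.3.3, statsmodels 0.14.6) and tested on simulated data. MYCN RNA is not reported here.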

Additional observations from a re-analysis of the deposited data

How the results depend on the processing

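Alternatives were median centring, quantile normalization and loess (span 0.3) of the deposited values, the brightest probe set of a gene, other filters on low values (none, the 70th percentile, the mean of both arrays), an offset of 16 on linear values, a 2-fold threshold, and other choices of scaffold and receptors. The median of all measured genes moved by less than 0.1 under each scaling. The median of all transport genes was −0.12 after median centring, beside 0.06 for all measured genes. As deposited these were −0.17 and 0.01. The median of import receptors and adaptors, −0.01 as deposited, was 0.037 after median centring, 0.0086 after quantile normalization, 0.0018 after loess and 0.0081 with the 70th percentile filter; values this close to 0 have no direction. The gap between receptors and scaffold, 0.06 as deposited, was −0.053 without the import adaptors, 0.0044 with no filter and 0.12 after loess. At 2-fold, 2 genes were lower. The 6 genes past 1.5-fold remained past it under median centring, quantile normalization and loess. The brightest probe set added IPO5 (−0.64), and the offset removed NUP35 (−0.52). The 70th percentile filter left 47 transport genes, of which 4 were at least 1.5-fold lower, beside 6.48% of all measured genes under that filter. The other 75 comparisons of a count or median with its alternative kept their direction, and the counts among them stayed within 1.5 times. Medians that kept their direction could still change in size, as the gap did with no filter (0.0044) and after loess (0.12). For medians this near 0, a kept direction says little about stability. All 250 values of single genes under alternatives lay within 1 probe-set SD of the deposited one, though genes near 0 turned sign (7 after median centring, 5 after quantile normalization, 3 after loess). No paired analysis was possible because each group has 1 sample. Genes near the array medians, such as NUP54, IPO5 and NUP35, are not shown to be above background, and how far 2 control cultures differ was not measured.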

Other observations

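Genes of the nuclear lamina and envelope, which surround the pore, included 2 of the widest differences among the lists examined. LMNB1, lamin B1, was at 8.81 in the control array against 7.65 under MYCN siRNA (difference −1.16, 2.23-fold lower). LBR, the lamin B receptor, which also acts in sterol synthesis, was at 9.56 and 8.59 (−0.97, 1.96-fold lower). LMNB2 was at 9.63 and 9.40 (−0.22), whereas LMNA, lamin A/C, was the highest of the list at 7.25 and 7.76 (0.51, 1.43-fold higher). The 12 measured genes went both ways, with 6 lower, 2 of them past 1.5-fold, and 6 higher, none past 1.5-fold. Of all measured genes 48% were lower, 5.79% at least 1.5-fold lower and 8.81% at least 1.5-fold higher.

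Of 4 measured SUMO pathway genes 2 were lower, beside 48% of all measured genes, and 2 higher. They ran from SUMO3 at 7.31 and 7.18 (−0.14) to SUMO2 at 9.32 and 9.77 (0.45). None was past 1.5-fold, beside 5.79% of all measured genes downward and 8.81% upward. Beside XPO5, the microRNA pathway had 2 measured genes: TARBP2, a partner of Dicer, at 8.26 and 7.86 (−0.40), and DGCR8, the partner of Drosha, at 7.19 and 7.32 (0.13).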
